A study of Mus musculus with 6 samples.

Results

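The interferon response genes are the transcription factors, antiviral proteins and GTPases that cells switch on after sensing an interferon. They were chosen on the hippocampal arrays by their symbols, as the *Stat*, *Irf*, *Ifit*, *Ifi*, *Ifitm*, *Oas*, *Gbp*, *Irgm* and *Mx* families together with *Iigp1*, *Isg15*, *Isg20*, *Usp18* and *Rsad2*. This gave 64 genes of 19505 with a symbol, each measured by 1 transcript cluster, the set of probes that reads a gene.

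Hippocampal RNA was taken from *LAO1* KO pups at postnatal day 10. The group *LAO1* KO with KO milk was suckled by KO dams and the group *LAO1* KO with WT milk by WT dams, and each gave 3 Clariom S arrays of 1 colour. Every pup in both groups lacked *LAO1*, the gene of a milk L-amino acid oxidase that releases hydrogen peroxide, so the difference between the groups that the labels give is the genotype of the nursing dam. Per the methods, the mice had a C57BL/6Jcl background and neonates were exchanged between dams on the day of birth. The arrays address how milk intake in infancy affects the developing hippocampus. No source used here names the litter of a pup, so p-values measure only the spread between these 6 samples.

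The labels call every pup male. The mean log2 intensity of 3 Y-linked genes was 3.26, 9.98 and 3.35 in KO milk replicates 1, 2 and 3, against 10.4, 3.56 and 9.97 in WT milk replicates 1, 2 and 3, so 3 of the 6 arrays went against the label. The methods, unlike the labels, include pups of either sex among the neonates. KO milk replicate 3 stood apart, 0.479 to 0.537 away from the other arrays (root mean square difference of log2 values), against 0.321 to 0.407 for any pair among the other 5. *Lao1* averaged a log2 intensity of 4.30 ± 0.32 with KO milk and 4.36 ± 0.30 with WT milk (SD, n = 3 each), at the level of genes that brain does not use. No source used here places its probes inside or outside the deletion, so this checks no label. All 10 measured markers of hippocampal excitatory neurons were above that level.

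Interferons bind receptors on the cell surface, whose JAK kinases phosphorylate STAT proteins. Complexes that hold STAT2 and IRF9 bind the interferon-stimulated response element (ISRE), and STAT dimers bind the gamma-activated sequence (GAS), mainly after interferon gamma. In uninfected brain most of these genes are expressed at a low level, and microglia, endothelium and astrocytes raise them on exposure to interferon or to nucleic acids that betray a virus. Several have other inputs: STAT3, STAT5 and STAT6 carry signals of cytokines other than interferons, and IRF8 is a factor of microglial identity.

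Promoter matches to the cores of the ISRE and the GAS are shown first. The RefSeq promoter table (GRCm38.p6, 250 bases before to 50 bases after each start) held an entry for 49 of the 64 genes. An ISRE core was searched as GAAANNGAAA and a GAS core as TTCNNNGAA, on both strands. The ISRE core was found in 24 of the 49 genes (48.98%), against 1079 of all 27025 genes in the table (3.993%). The GAS core was found in 11 of the 49 (22.449%), against 2582 of 27025 (9.554%). Of 35 ISRE cores in these promoters, 1 overlapped a GAS core. A match is a description of letters and not a measured binding site. Copies with the same window letters, such as *Ifit3* and *Ifit3b* or *Oas1a* and *Oas1g*, were counted as separate genes in these shares.

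The windows below are written 5′ to 3′ on the strand of the gene, with the ISRE core in capitals and up to 15 bases on either side. TTTCNNTTTC is the core read from the other strand. They were chosen to show 1 gene or pair from each of several effector families that the results below describe, and all lie before the start. *Isg15* holds 3 overlapping cores (chr4:156200860-156200911, minus strand), the last of which ends 56 bases before the start. *Ifit1* holds 2 separate cores (chr19:34640770-34640828, plus strand). *Ifit3* (chr19:34583358-34583397, plus strand) and *Ifit3b* (chr19:34607754-34607793, plus strand) have the same letters, as have *Ifi208* (chr1:173673592-173673631, plus strand) and *Ifi213* (chr1:173599321-173599360, minus strand). *Oas1c* (chr5:120812598-120812643, minus strand), *Gbp2* (chr3:142620589-142620628, plus strand), *Irgm2* (chr11:58214898-58214937, plus strand), *Rsad2* (chr12:26456548-26456587, minus strand) and *Stat2* (chr10:128270261-128270300, plus strand) are shown for the OAS enzymes, the GTPases, the other effectors and the STAT factors.
Isg15: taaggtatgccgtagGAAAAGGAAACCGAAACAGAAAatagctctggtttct
Ifit1: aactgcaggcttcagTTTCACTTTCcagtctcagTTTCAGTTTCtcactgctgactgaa
Ifit3 and Ifit3b: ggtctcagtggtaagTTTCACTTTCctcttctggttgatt
Ifi208 and Ifi213: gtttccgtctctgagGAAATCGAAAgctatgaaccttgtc
Oas1c: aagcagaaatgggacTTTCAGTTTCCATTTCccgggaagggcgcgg
Gbp2: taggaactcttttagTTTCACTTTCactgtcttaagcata
Irgm2: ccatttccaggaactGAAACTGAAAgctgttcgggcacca
Rsad2: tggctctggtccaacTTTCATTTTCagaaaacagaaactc
Stat2: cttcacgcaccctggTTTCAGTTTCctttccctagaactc

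In the P10 hippocampus many of these genes were near the background of the array. A floor was set at a log2 intensity of 5.78, the 95th percentile of 1410 olfactory and vomeronasal receptor genes. A gene counts as above it by its mean over the 6 arrays. By this measure 26 of the 64 interferon response genes were above the floor (40.6%), against 63.3% of all genes with a symbol. With the 90th percentile as the floor the number was 34, and with the 99th it was 17. Since RNA came from whole tissue, a low level from few cells and a low level per cell cannot be told apart.

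The families differed in how many members were above the floor. Of the 12 OAS enzymes and of the 4 genes grouped as ISG15 cycle and other effectors (*Isg15*, *Isg20*, *Usp18* and *Rsad2*) 0 were, whereas 5 of 8 IRF factors, 4 of 6 IFITM proteins and 3 of 4 IFIT proteins were. Among STAT factors it was 3 of 6, among GTPases 6 of 11, among the p200 family 2 of 7 and among the remaining *Ifi* genes 3 of 6. An interferon response gene not above the floor may still be expressed, and background signal then limits the fold change that can be seen.

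**Figure D1:**
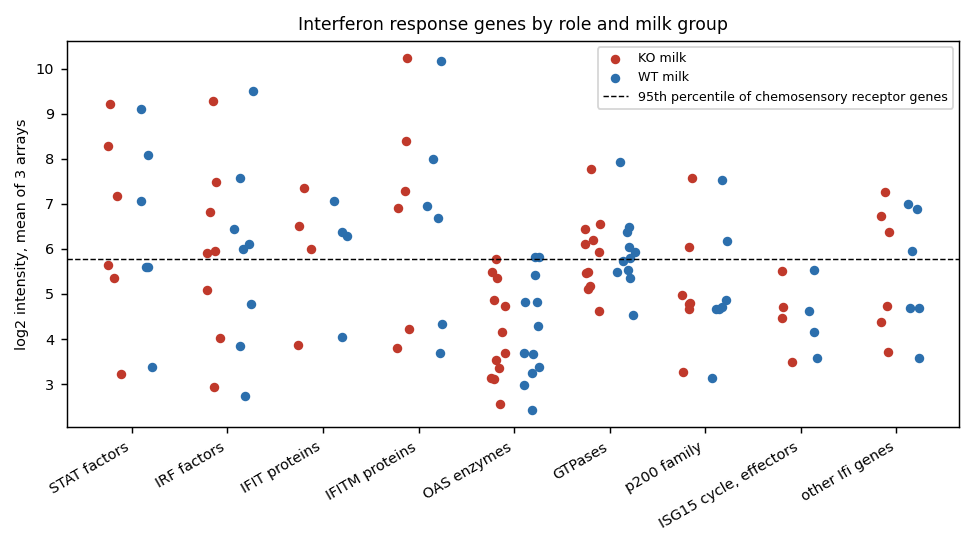
Each point is the mean log2 intensity of 1 interferon response gene over 3 arrays, by family, with KO milk left of WT milk; the dashed line is the floor of 5.78 set by the chemosensory receptor genes. The OAS enzymes lie at or below the line by their mean over both groups, and the points of both groups cover like ranges in every family.

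Nursing by KO dams went with small differences in either direction. Of the 64 interferon response genes, 35 had a log2 fold change above 0, which is higher with KO milk than with WT milk, and 29 one below 0. Their median was 0.04, against 0.00245 for all genes with a symbol. The range ran from -0.46 for *Oas1c*, a gene of the oligoadenylate synthetase (OAS) family, to 0.43 for *Ifi35*, an interferon-induced leucine zipper protein. The size of the difference, without its sign, had a median of 0.138 in these genes and 0.140 in all genes.

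No interferon response gene passed limma. At an adjusted p under 0.05 the count was 0 of 64, and over all 22206 clusters limma called 0 as well (0.0%). At an unadjusted p under 0.05 the counts were 0 higher and 0 lower of 64, whereas over all genes with a symbol 1.46% were higher and 1.7% were lower. The smallest unadjusted p among the interferon response genes was 0.0637, for *Oas1c*, and its adjusted p was 0.9996, which was also the smallest adjusted p over all clusters. Without KO milk replicate 3, 1 gene was higher (*Gbp4*, 0.40) and 2 were lower (*Oas1c* and *Oasl2*) at an unadjusted p under 0.05. The share over all genes was not counted without that array, so these counts cannot be set against it.

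The groups did not overlap for 8 interferon response genes. All 3 KO milk arrays lay above all 3 WT milk arrays for 5 of them (7.81% of the 64), *Irf1*, *Stat2*, *Gbp4*, *Ifitm7* and *Ifi30*, each above the floor. Over all genes this share was 4.15%. All 3 KO milk arrays lay below for 3 (4.69%), *Ifit2*, *Stat6* and *Gbp9*, and the share over all genes was 4.25%. Only *Ifit2* of these 3 was above the floor. For each of the 8 an exact two-sided permutation test gave p = 0.1, the smallest that 3 arrays against 3 allow, and for the other 56 genes it gave 0.2 to 1.0.

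The intervals set a bound on the differences that these arrays leave possible. The 95% interval of limma included 0 for all 64 interferon response genes. It lay within 2-fold in either direction for 63 of them and within 1.5-fold for 32. *Ifitm3* was the exception to the 2-fold bound, with an interval of -0.23 to 1.03. The standard error of the log2 fold change ran from 0.166 to 0.343 with a median of 0.195, against 0.202 for all genes. The number of arrays limits this precision. These bounds hold for the array values. For the 38 genes not above the floor, background signal limits the fold change, so the intervals do not bound the change in RNA.

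**Figure D2:**
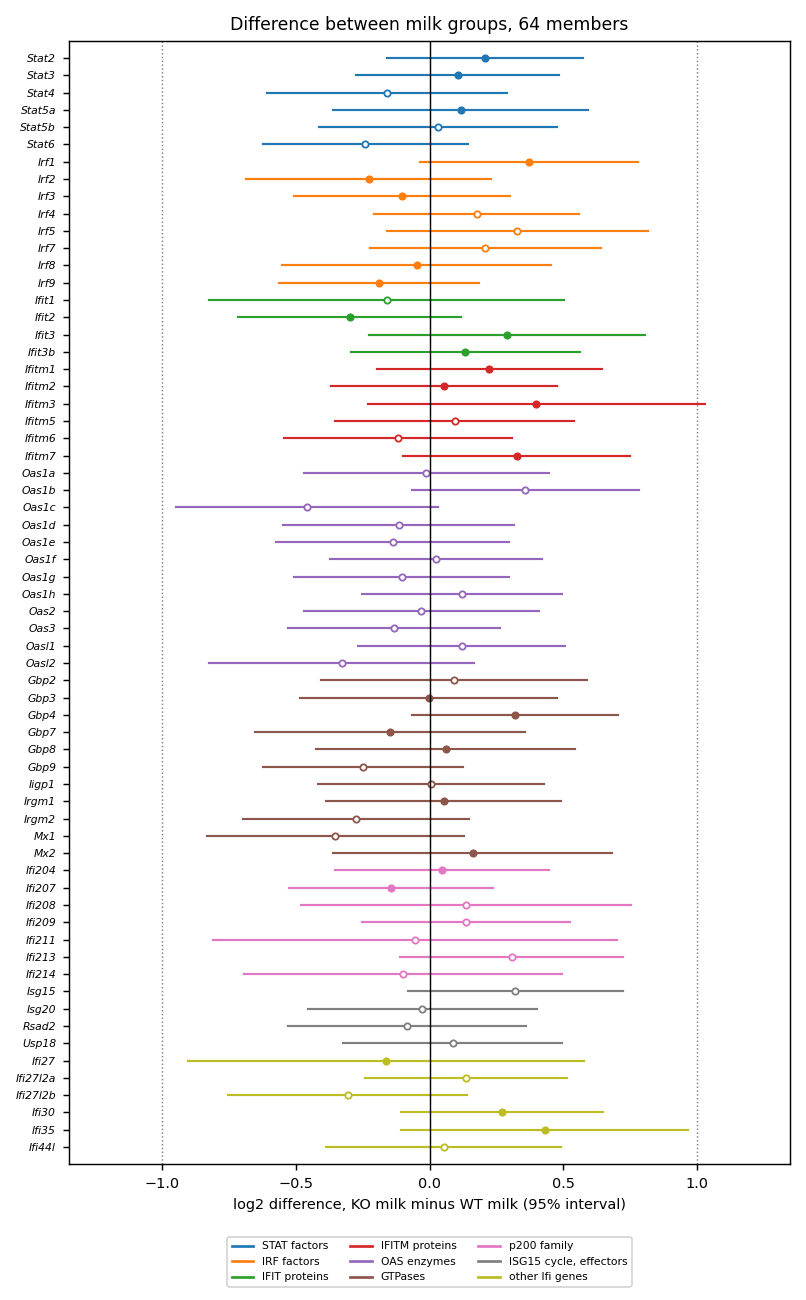
Log2 fold change, KO milk over WT milk, of each of the 64 interferon response genes with its 95% interval from limma, coloured by family; filled points are genes above the floor and open points are genes not above it, and dotted lines mark 2-fold. All intervals include 0, and the points run from -0.46 for *Oas1c* to 0.43 for *Ifi35*.

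Array by array, the median of the interferon response genes stayed close to the WT milk level. Relative to the average WT milk level of each gene, their median deviation was -0.02, 0.05 and 0.07 in KO milk replicates 1, 2 and 3, and -0.07, 0.07 and -0.03 in WT milk replicates 1, 2 and 3. WT milk replicate 2 thus lay as high as the highest KO milk array. The 26 genes above the floor showed a median difference of 0.08, with 17 above 0 and 9 below, against -0.02 for all genes with a symbol above the floor. The 38 that were not above it had a median of -0.02, with 18 above 0 and 20 below.

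**Figure D3:**
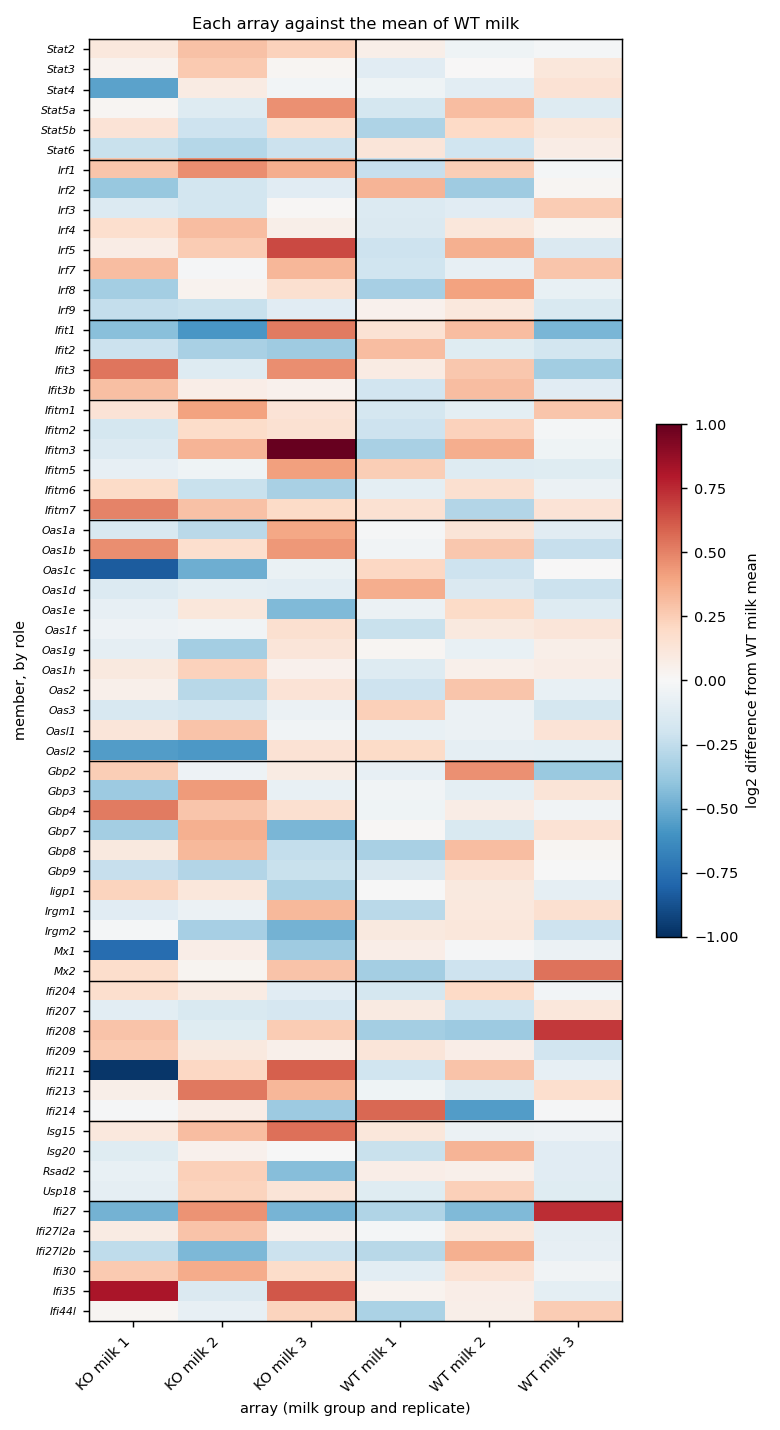
Log2 difference of each array from the mean of the 3 WT milk arrays for each interferon response gene, in families divided by lines, with KO milk arrays left of WT milk arrays. Rows of 1 colour across a group are few, and single squares such as *Ifitm3* in KO milk replicate 3, *Ifi35* and *Ifi211* in KO milk replicate 1 and *Ifi27* in WT milk replicate 3 are among the strongest.

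The STAT factors are the cytoplasmic proteins that carry the signal of a cytokine receptor to the nucleus. *Stat2*, a subunit of the ISRE-binding complex, read 8.18, 8.37 and 8.30 on the log2 scale with KO milk, against 8.14, 8.04 and 8.06 with WT milk. The lowest KO milk array stood 0.04 above the highest WT milk array, and the log2 fold change was 0.21 (standard error 0.17, unadjusted p = 0.238 from limma). *Stat6*, which transmits interleukin 4, read 5.38, 5.31 and 5.38 with KO milk and 5.72, 5.40 and 5.68 with WT milk, all under the floor. The difference of *Stat6* was -0.24 (standard error 0.17, unadjusted p = 0.193 from limma). *Stat3*, *Stat5a*, *Stat5b* and *Stat4* lay between -0.16 and 0.12. The median over the 6 STAT factors was 0.07, with 4 above 0.

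The IRF factors bind the ISRE and related sequences and act at both ends of the pathway, in making interferon and in answering it. *Irf1*, an activator induced strongly by interferon gamma, had the smallest p of this family. It read 6.73, 6.92 and 6.82 with KO milk, against 6.22, 6.70 and 6.44 with WT milk. The KO milk arrays sat close together, and the nearest WT milk array was replicate 2, 0.03 below the lowest of them. The fold was 1.29 in favour of KO milk (log2 fold change 0.37, standard error 0.18, unadjusted p = 0.0701 from limma). Without WT milk replicate 2 the value was 0.50, with an unadjusted p of 0.0358 from limma that did not hold after adjustment, and without WT milk replicate 1 it was 0.26.

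*Irf9*, the DNA-binding subunit that partners STAT2, gave 5.86, 5.88 and 5.99 with KO milk and 6.14, 6.21 and 5.95 with WT milk, an overlap of 1 array and a difference of -0.19 on that scale (standard error 0.17, unadjusted p = 0.287 from limma). *Stat2* and *Irf9*, which act in 1 complex, thus had point estimates of opposite sign, neither of them past the test. *Irf7*, the factor that amplifies interferon alpha production, was far under the floor in every array, at 3.05, 2.73 and 3.07 with KO milk and 2.54, 2.66 and 3.02 with WT milk. The groups overlapped for *Irf7*, with a difference of 0.21 (unadjusted p = 0.312 from limma). *Irf5*, which acts downstream of Toll-like receptors, had 4.84, 5.02 and 5.43 with KO milk and 4.56, 5.12 and 4.62 with WT milk, also overlapping and under the floor (0.33, unadjusted p = 0.167 from limma).

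The other IRF factors lay on both sides of 0. *Irf3*, the factor that nucleic acid sensors activate first, had a value of -0.10, and *Irf2*, a competitor of IRF1, one of -0.23. *Irf8*, the microglial factor, stood at -0.05 and *Irf4*, a lymphocyte factor, at 0.18. Of the 8 IRF factors, 4 were above 0 and 4 below, with a median of 0.06.

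*Isg15* encodes a ubiquitin-like protein that is attached to other proteins after interferon exposure, and its promoter entry holds 3 ISRE cores, more than that of any other of the 49 genes. It read 4.26, 4.46 and 4.70 with KO milk, against 4.26, 4.09 and 4.10 with WT milk, all under the floor. KO milk replicate 1 and WT milk replicate 1 were level, so the groups overlapped, and the log2 fold change was 0.32 (standard error 0.18, unadjusted p = 0.106 from limma). *Usp18*, the protease that removes ISG15 and damps the interferon receptor, had a value of 0.09 (4.54, 4.85 and 4.76 with KO milk, against 4.51, 4.87 and 4.51 with WT milk). *Rsad2*, which encodes viperin, read 3.51, 3.82 and 3.16 with KO milk and 3.65, 3.63 and 3.47 with WT milk (-0.09). The KO milk arrays of *Rsad2* lay on both sides of the WT milk arrays. *Isg20*, an exonuclease, was at -0.03.

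The IFIT proteins bind viral RNA and are classic interferon targets. *Ifit3* read 7.60, 6.93 and 7.52 with KO milk and 7.14, 7.32 and 6.71 with WT milk. KO milk replicate 2 fell among the WT milk arrays, and the difference was 0.29 (standard error 0.23, unadjusted p = 0.241 from limma). *Ifit3b* is a neighbouring copy of *Ifit3* with the promoter letters printed above, and its value was 0.13. Signal may be shared between such copies, since which probes tell them apart was not examined. *Ifit2* went the other way, with 6.07, 5.97 and 5.93 with KO milk and 6.60, 6.17 and 6.10 with WT milk, a gap of 0.03 between the groups and a difference of -0.30 on that scale (standard error 0.19, unadjusted p = 0.143 from limma), which was -0.14 without WT milk replicate 1.

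*Ifit1*, which recognises RNA with an incomplete cap, was not above the floor, at 3.62, 3.45 and 4.56 with KO milk and 4.18, 4.35 and 3.58 with WT milk. The 6 arrays were interleaved, and the interval of its difference ran from -0.82 to 0.50. *Ifit1* and *Ifit3*, each with 2 ISRE cores, thus had point estimates of opposite sign. The 4 IFIT proteins had a median of -0.01.

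The IFITM proteins sit in membranes and hinder the entry of viruses. This was the family with the largest median, 0.16, and 5 of its 6 members were above 0. *Ifitm7* read 7.45, 7.24 and 7.14 with KO milk and 7.10, 6.66 and 7.09 with WT milk, so that the groups were separated by 0.04, with WT milk replicate 2 lowest. Its difference was 0.33 (standard error 0.19, unadjusted p = 0.119 from limma). It was 0.18 when WT milk replicate 2 was left out.

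*Ifitm3*, the best studied restriction factor of the family, had 7.85, 8.33 and 8.99 with KO milk and 7.67, 8.36 and 7.95 with WT milk. KO milk replicate 3 was highest by a wide margin and the other 5 arrays were mixed, which gave the widest bound of the 64 genes (log2 fold change 0.40, standard error 0.29, unadjusted p = 0.189 from limma). Without KO milk replicate 3, the array that stood apart, its value was 0.10 (unadjusted p = 0.686 from limma), with array weights it was 0.11, and without WT milk replicate 1 it was 0.24. Leaving out KO milk replicate 1 instead gave 0.67 (unadjusted p = 0.035, adjusted p = 0.992 from limma). *Ifitm2* was at 10.00, 10.36 and 10.33 with KO milk, against 9.97, 10.40 and 10.15 with WT milk, a difference of 0.05. *Ifitm1* was at 0.22, *Ifitm5* at 0.09 and *Ifitm6* at -0.12.

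**Figure D4:**
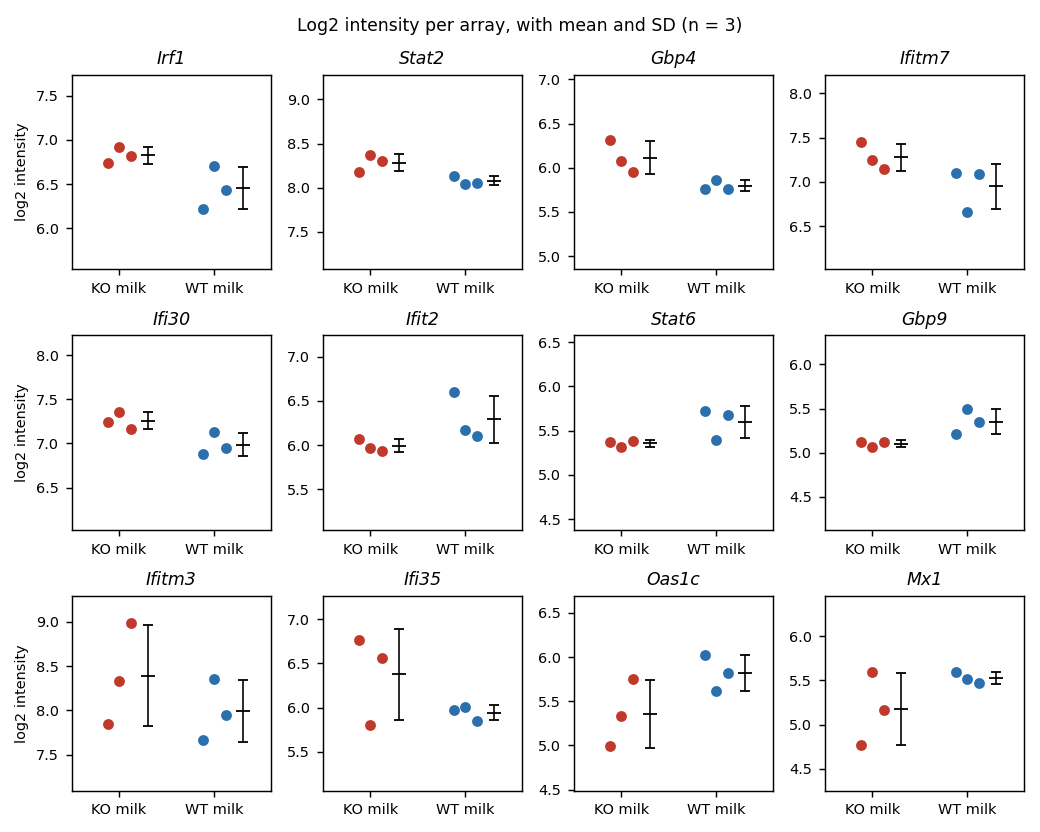
Log2 intensity of 12 interferon response genes on each array, KO milk left of WT milk, with the mean and SD of 3 arrays beside each group. In the top 5 genes by reading order, *Irf1* to *Ifi30*, all KO milk points lie above the WT milk points, for *Ifit2*, *Stat6* and *Gbp9* all lie below, and for *Ifitm3*, *Ifi35*, *Oas1c* and *Mx1* the groups overlap.

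The OAS family is named for enzymes that make oligoadenylates, which activate RNase L, an enzyme that degrades RNA. Whether each member has this activity was not examined. Of the 12, 0 were above the floor, 8 had a log2 fold change below 0 and 4 one above, and their median was -0.07. *Oas1c* read 4.99, 5.33 and 5.75 with KO milk and 6.02, 5.61 and 5.82 with WT milk. KO milk replicate 3 overlapped the WT milk arrays, and the fold was 1.38 in favour of WT milk (log2 fold change -0.46, standard error 0.22, unadjusted p = 0.0637 from limma). *Oasl2* showed a like order of arrays, at 5.26, 5.25 and 5.97 with KO milk and 6.01, 5.73 and 5.73 with WT milk (-0.33, unadjusted p = 0.171 from limma).

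The values of both genes moved with single arrays. *Oas1c* was at -0.28 without KO milk replicate 1 (unadjusted p = 0.259 from limma) and at -0.66 without KO milk replicate 3 (unadjusted p = 0.0089 from limma). *Oasl2* was at -0.21 without KO milk replicate 1 and also without replicate 2, and at -0.57 without replicate 3 (unadjusted p = 0.0101 from limma). Neither gene passed after adjustment. *Oas1b* had 5.89, 5.59 and 5.86 with KO milk and 5.38, 5.69 and 5.19 with WT milk, overlapping through WT milk replicate 2 (0.36, standard error 0.19, unadjusted p = 0.0908 from limma). Without that array its value was 0.49 (unadjusted p = 0.0428 from limma), and without WT milk replicate 3 it was 0.24. *Oas1a*, a synthetase activated by viral RNA, was interleaved at 3.54, 3.42 and 4.08 with KO milk and 3.68, 3.82 and 3.58 with WT milk (-0.01). The other 8 OAS genes lay between -0.14 and 0.12, and the near-identical *Oas1* copies may share signal.

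The interferon-induced GTPases attack membranes around parasites or block viral nucleoproteins. *Gbp4*, a guanylate-binding protein, read 6.32, 6.07 and 5.96 with KO milk and 5.76, 5.87 and 5.76 with WT milk. The WT milk arrays were close together and the lowest KO milk array stood 0.09 above them, with a difference of 0.32 on that scale (standard error 0.18, unadjusted p = 0.0959 from limma). *Gbp9*, which was named after its values were seen, went the other way and lay under the floor, at 5.12, 5.06 and 5.13 with KO milk and 5.21, 5.50 and 5.35 with WT milk (-0.25, unadjusted p = 0.172 from limma). *Gbp2*, with its ISRE core printed above, was interleaved at 4.77, 4.48 and 4.61 with KO milk and 4.44, 4.99 and 4.16 with WT milk (0.09).

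*Mx1*, a dynamin-like GTPase, had 4.77, 5.59 and 5.17 with KO milk and 5.60, 5.52 and 5.47 with WT milk, all under the floor. Its WT milk arrays agreed to within 0.12 and KO milk replicate 2 lay among them, whereas the other KO milk arrays were lower (log2 fold change -0.35, standard error 0.22, unadjusted p = 0.135 from limma). *Mx1* was at -0.15 without KO milk replicate 1 (unadjusted p = 0.511 from limma) and at -0.56 without KO milk replicate 2 (unadjusted p = 0.0234, adjusted p = 0.792 from limma). *Irgm1*, an immunity-related GTPase that regulates autophagy, was at 6.38, 6.44 and 6.82 with KO milk and 6.23, 6.60 and 6.66 with WT milk (0.05). *Gbp3*, *Gbp7*, *Gbp8*, *Iigp1*, *Irgm2* and *Mx2* lay between -0.27 and 0.16. The 11 GTPases had a median of 0.01, with 6 above 0 and 5 below.

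The p200 family holds DNA-binding proteins of the interferon response that lie in 1 cluster on chromosome 1. *Ifi213* had a mean of 4.97 with KO milk, where the arrays spanned 4.73 to 5.20, and of 4.67 with WT milk, where they spanned 4.54 to 4.84, with KO milk replicate 1 between the WT milk arrays (0.31, standard error 0.19, unadjusted p = 0.133 from limma). *Ifi208*, whose ISRE window has the same letters, read 4.96, 4.55 and 4.92 with KO milk and 4.33, 4.31 and 5.38 with WT milk, so that WT milk replicate 3 was highest (0.14). *Ifi207* was at 6.08, 6.03 and 6.02 with KO milk and 6.27, 5.99 and 6.30 with WT milk (-0.14). *Ifi204*, *Ifi209*, *Ifi211* and *Ifi214* lay between -0.10 and 0.14, and the family had a median of 0.05. Its members resemble each other in sequence, and signal may be shared between them.

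Of the remaining *Ifi* genes, *Ifi35* had the highest value of the 64. It read 6.76, 5.80 and 6.56 with KO milk and 5.98, 6.01 and 5.85 with WT milk. KO milk replicate 2 was the lowest of all 6 arrays, whereas the other KO milk arrays were the highest (log2 fold change 0.43, standard error 0.24, unadjusted p = 0.105 from limma). Leaving out KO milk replicate 1 gave 0.24 (unadjusted p = 0.371 from limma), a Y-gene covariate gave 0.25, and leaving out KO milk replicate 2 gave 0.72 (unadjusted p = 0.0046, adjusted p = 0.792 from limma). *Ifi30*, a thiol reductase of antigen-presenting cells, read 7.25, 7.36 and 7.17 with KO milk and 6.88, 7.13 and 6.95 with WT milk, a separation of 0.035 (0.27, standard error 0.17, unadjusted p = 0.142 from limma).

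*Ifi27* varied more within groups than between them, at 6.41, 7.34 and 6.43 with KO milk and 6.59, 6.44 and 7.63 with WT milk (-0.16). The high arrays, KO milk replicate 2 and WT milk replicate 3, were both among the 3 with high signal of Y-linked genes. The third such array, WT milk replicate 1, was not high. With the signal of Y-linked genes as a covariate the value was 0.12 (unadjusted p = 0.683 from limma). *Ifi27l2a*, *Ifi27l2b* and *Ifi44l* lay between -0.31 and 0.14.

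The genes were also divided by whether their promoter entry holds an ISRE core. The 24 with a core showed a median of -0.03 (range -0.46 to 0.40), with 10 above 0 and 10 above the floor. The 25 without one had a median of 0.10, with 17 above 0 and 11 above the floor. No difference between these lists was tested.

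The other genes of the pathway were taken from lists written by name. By limma at an unadjusted p under 0.05, 1 of 18 measured interferon genes was higher and 0 were lower, with a median of 0.05. The share over all genes with a symbol, against which this and the following counts are read, was 1.46% higher and 1.7% lower. The higher gene was *Ifna5*, an interferon alpha, at 8.34, 7.39 and 8.14 with KO milk and 7.15, 7.53 and 7.39 with WT milk (0.60, unadjusted p = 0.0348 from limma), and the groups overlapped. Of the 18 interferon genes, 7 were above the floor. Signal may be shared between the interferon alpha genes, since which probes tell them apart was not examined. *Ifnb1*, the gene of interferon beta, was at 0.12 and *Ifng*, that of interferon gamma, at 0.09. Of 9 receptor and JAK kinase genes 0 passed in either direction, with a median of 0.03, and *Ifnar1*, *Ifnar2* and *Ifngr1* had values of 0.05, -0.06 and 0.12.

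Among 16 brakes on the pathway, such as the SOCS proteins and phosphatases, 1 was higher and 0 were lower. It was *Ptpn6*, a phosphatase of blood cells and microglia, at 3.60, 3.74 and 4.05 with KO milk and 3.04, 3.42 and 3.46 with WT milk (0.49, unadjusted p = 0.0311 from limma). The groups did not overlap, and all arrays were under the floor. Among 16 sensors of nucleic acids and their adaptors, 1 was higher and 1 was lower, with a median of 0.11. *Ddx58*, which encodes the RNA sensor RIG-I, read 6.46, 6.97 and 7.26 with KO milk and 5.95, 6.54 and 6.34 with WT milk (0.62, unadjusted p = 0.0256 from limma). *Aim2*, a DNA sensor of inflammasomes, read 5.70, 6.26 and 5.56 with KO milk and 6.77, 6.45 and 6.11 with WT milk (-0.60, unadjusted p = 0.0288 from limma). For both sensors 1 KO milk array overlapped the WT milk arrays.

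Of 17 antigen presentation genes 1 was higher and 0 were lower, with a median of 0.07. It was *Psmb9*, a subunit of the immunoproteasome, at 5.04, 4.71 and 5.07 with KO milk and 4.26, 4.51 and 4.51 with WT milk (0.51, unadjusted p = 0.0174 from limma), without overlap and under the floor. Of 30 other interferon-induced genes and of 7 interferon-induced chemokines 0 passed in either direction, with medians of 0.02 and 0.23. *Cxcl10* was at 0.26 (unadjusted p = 0.155 from limma) and *Nmi*, whose protein binds IFI35, at 0.43 (unadjusted p = 0.0754 from limma). Each of *Ifna5*, *Ptpn6*, *Ddx58*, *Aim2* and *Psmb9* was past an unadjusted p of 0.05 with all 6 arrays and not when some single array was left out. Without WT milk replicate 1, for example, their values were 0.50, 0.36, 0.46, -0.44 and 0.43, and none passed. With the signal of Y-linked genes as a covariate they were 0.39, 0.44, 0.57, -0.48 and 0.43, with unadjusted p-values from limma of 0.0968, 0.0725, 0.0591, 0.0808 and 0.0525, so again none passed. None passed after adjustment over all clusters.

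Few markers of the cells that carry the interferon response passed the same unadjusted threshold. All 17 measured microglial markers were above the floor, with 0 higher and 0 lower at an unadjusted p under 0.05, a median of -0.01 and a summed linear intensity of 12958 to 17039 with KO milk and 12365 to 17109 with WT milk. Of 14 leukocyte markers 3 were above the floor (*Ptprc*, *Cd4* and *Ly6c2*), whereas *Cd3e*, *Cd79a*, *S100a8* and *Ccr2* were not, and 0 passed in either direction (median 0.07). The 11 endothelial markers had a median of 0.00 and 0 calls. Of 10 astrocyte markers 1, *S100b*, was lower (-0.58, unadjusted p = 0.0456 from limma). It did not pass without KO milk replicate 3 (-0.36), WT milk replicate 2 (-0.43) or WT milk replicate 3 (-0.50), nor with the Y-gene covariate (-0.61).

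Markers of other cell types differed more. At an unadjusted p under 0.05, 0 of 11 markers of myelinating oligodendrocytes were higher and 9 were lower, with a median of -0.84 and a summed linear intensity of 48605 to 81118 with KO milk and 107818 to 118292 with WT milk. All 12 choroid plexus markers were below 0, with a median of -0.68, and 2 passed as lower, *Ttr* (-5.30, unadjusted p = 0.0186 from limma) and *Clic6* (-1.41, unadjusted p = 0.0371 from limma). Neither passed without KO milk replicate 1, KO milk replicate 3 or WT milk replicate 1, where *Ttr* was at -4.57, -3.04 and -5.18 and *Clic6* at -1.05, -0.99 and -0.91. Without KO milk replicate 2 both passed, *Ttr* at -8.28 (unadjusted p = 1.8e-07 from limma) and *Clic6* at -2.20 (unadjusted p = 0.00027 from limma). The choroid plexus list had a summed intensity of 1056 to 300562 with KO milk and 141575 to 222429 with WT milk, so the KO milk arrays differed widely among themselves. Of the 10 hippocampal neuron markers 1 was higher, *Prox1*, a factor of dentate granule cells (0.54, unadjusted p = 0.0149 from limma), which did not pass without KO milk replicate 2 (0.42) or WT milk replicate 2 (0.46). The part of any of these cell types in the values of the interferon response genes was not tested.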

How the data were processed

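Hippocampal RNA of 6 *LAO1* KO pups was measured on 1-colour arrays. The authors used Transcriptome Analysis Console and RMA, per the labels, to correct the background, scale the arrays to each other and combine probes, and deposited 1 log2 intensity for each cluster and array. The genome build and annotation version are not given in the sources used here. RMA makes arrays alike in distribution, so a shift of all genes cannot be seen. The values ran from 2.23 to 19.70, with array medians of 6.89 to 6.92, and were used without further scaling.

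Of 22206 clusters, 19572 carried a symbol and 2634 none. A gene was read from its brightest cluster. The difference KO milk minus WT milk was tested for all clusters by limma (version 3.58.1, lmFit with eBayes, under R 4.3.3), with Benjamini-Hochberg adjustment over all clusters, a threshold of 0.05 and no intensity filter. Single genes also had an exact two-sided permutation test. The limma fit was tested on simulated data with independent noise and changes larger than any seen in the interferon response genes. That test does not cover differences of the size reported here. Members and lists were chosen with earlier results of these data known. Members are named by a rule: any with an unadjusted p under 0.05, the 2 with the smallest p in each family, and 19 preset genes, of which 17 were measured and the others are not reported here. Of other lists, up to 4 genes with the smallest p are named, and further defining genes only for orientation. Coordinates and promoters are those of RefSeq GRCm38.p6.

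The alternatives were further normalizations, array weights, a variance trend, a replicate block, a Y-gene covariate, the methods' t-test, other floors and each array left out. Series-wide results, red cell, meningeal and Y-linked lists served as checks. The 9 meningeal genes had a median of -0.12 and the 10 hippocampal neuron genes one of 0.10. The 3 red cell genes measured had a median of 0.09, but their arrays differed. Relative to the WT milk mean, their median deviation was 0.15, 0.01 and 0.74 in KO milk replicates 1, 2 and 3. In WT milk replicates 1, 2 and 3 it was -0.14, 0.08 and 0.15. Scanner files were not used here.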

Additional observations from a re-analysis of the deposited data

How the results depend on the processing

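Over 16 settings no interferon response gene passed limma after adjustment, and the smallest adjusted p was 0.792, without KO milk replicate 2. For these genes 1 of the settings, the mean over all clusters of a gene, equals the fit as reported, since each has 1 cluster. Clusters called over the whole array were 0 in every setting except 1 without that array, so leaving out single arrays gave 0 to 1. The number of interferon response genes past an unadjusted p of 0.05 was less stable. The share over all genes was counted only for the fit as reported, so the following counts cannot be set against it. Leaving out 1 array gave 0 to 2 higher and 0 to 2 lower genes. Array weights gave 2 higher (*Gbp4* and *Ifitm7*) and 2 lower (*Oas1c* and *Oasl2*), with a weight of 0.384 for KO milk replicate 3. The methods' t-test gave 3 higher (*Gbp4*, *Stat2* and *Ifi30*) and 1 lower (*Gbp9*), and 0 after Benjamini-Hochberg adjustment. With a Y-gene covariate 0 were higher and 1 was lower, *Ifi27l2b* (-0.45). Repeated quantile normalization, cyclic loess, a common median, a variance trend and the filter on intensity, which kept 26 of the 64, gave 0 in either direction. The replicate block cannot move a fold change, since each replicate number occurs in both groups, so its median of 0.04 was fixed in advance. It gave 0 higher and 0 lower. Same-numbered arrays of the groups had correlations of 0.0247, -0.127 and 0.0163 between their deviations from the group means. Arrays with unlike numbers had correlations of -0.101 to 0.069. These values cannot show whether same-numbered arrays share a litter or a batch.

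The median log2 fold change of the 64 genes ran from -0.0277 without WT milk replicate 1 to 0.0903 without WT milk replicate 2. It was also below 0 with array weights (-0.00777), so its sign depends on the setting. The number above the floor was 17 with the 99th percentile in place of the 95th. The cause of these changes was not tested. With all 64 fitted, the sign of the fold change differed from that reported in 0 to 11 of the genes per setting. For genes under the floor, signal over background limits the fold change. Litter and batch could not be modelled, since the labels give neither.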
